A study of Mus musculus with 12 samples.

Results

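Voltage-gated sodium, potassium and calcium channel genes were followed in *Tpp1*-/- mice (T) and wild-type controls (N), in a block of forebrain and midbrain (F/M) and in the cerebellum (Cb). A gene belonged to the set if its symbol matched the *Scn*, *Kcna* to *Kcnd*, *Kcnq*, *Kcnh*, *Hcn* or *Cacna1* families, if it was protein-coding, and if its counts summed to at least 120 over the 12 libraries. This gave 51 of 52459 genes. They comprised 7 sodium channel alpha and 4 beta subunits, 6 *Kcna*, 2 *Kcnb*, 4 *Kcnc*, 3 *Kcnd*, 5 *Kcnq*, 8 *Kcnh*, 4 *Hcn* and 8 *Cacna1* genes. Of 59 symbols with these patterns, 2 were antisense RNAs (*Kcnd3os*, *Kcnq1ot1*) and 6 protein-coding genes had too few counts (*Cacna1f*, *Kcna7*, *Kcna10*, *Scn4a*, *Scn10a*, *Scn11a*). *Kcnq1* was the member closest above the minimum, with 184 counts, and *Scn11a* the gene closest below it, with 104 counts.

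The 4 groups were Cb-N, Cb-T, F/M-N and F/M-T, each with 3 libraries. All mice were males of 4 months. T mice were homozygous for a *Tpp1* allele disrupted by gene targeting, a model of classic late-infantile neuronal ceroid lipofuscinosis, and N mice were their wild-type siblings from heterozygous crosses. The disruption was carried in the germline, and each area was sequenced as bulk tissue, so fewer cells of a type and less RNA per cell cannot be told apart. By the study's methods both areas were taken from 3 mice of each genotype, so libraries of the 2 areas can come from the same animal, but the labels do not say which. P-values measure the spread among these 3 libraries per group.

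Voltage-gated channels open when the membrane potential changes. The pore is formed by a large alpha subunit (*Scn*, *Cacna1*) or by several smaller subunits (*Kcn*, *Hcn*). Sodium channels start the action potential, potassium channels end it and set the firing rate, calcium channels trigger transmitter release and dendritic spikes, and HCN channels carry a pacemaker current. Purkinje cells and granule cells of the cerebellum use Kv3 (*Kcnc*) channels for fast repolarization, and Purkinje cells release transmitter mainly through P/Q-type calcium channels (*Cacna1a*).

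Total counts were 21428379 to 24458189 per library, and 3 counts, taken as the smallest detectable level, were worth 0.123 to 0.140 CPM of the raw totals. Levels below are in CPM scaled to a common library size with TMM factors. *Tpp1* itself was at 87.7 to 114 CPM in the N libraries and at 21.8 to 31.0 CPM in the T libraries. The area labels matched their markers, since 15 granule cell genes summed to 8050 to 8200 CPM in Cb-N against 663 to 680 CPM in F/M-N, and 20 forebrain genes to 4740 to 4810 CPM in F/M-N against 414 to 429 CPM in Cb-N. In the text below, a gene rose or fell if edgeR's quasi-likelihood test gave an FDR below 0.1 over all genes, and it was called a differentially expressed gene (DEG) if the fold change was also at least 1.5.

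The level of each member per kb of exon was compared first. In Cb-N, *Scn2b* with 108 CPM per kb, *Kcnc1* with 77.0 and *Kcnd2* with 71.8 were among the 5 highest. *Scn2b* encodes a beta subunit, which attaches to the sodium channel pore and sets its gating and surface level. *Kcnc1* encodes the Kv3.1 pore of fast-spiking cells, and *Kcnd2* the Kv4.2 pore of the dendritic A-type current. In F/M-N, *Scn2b* with 78.8 CPM per kb, *Scn4b* with 58.4 and *Hcn2* with 37.2 were among the 5 highest. *Scn4b* is another beta subunit and *Hcn2* a pacemaker channel. Summed over all 51 members, the level was close in both control areas, at 7500 to 7810 CPM in Cb-N and 7170 to 7670 CPM in F/M-N.

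The control areas differed in which members made up that sum. Between F/M-N and Cb-N, 26 members were called higher in F/M-N and 8 lower, against 22.8% and 19.2% of the 16725 genes tested (42% in either direction). By FDR alone 35 were higher and 15 lower, against 40.1% and 40.3% of all genes. The libraries did not overlap for 34 higher and 15 lower members, against 38.8% and 39.5%. Among the 5 largest F/M-N to Cb-N ratios were those of *Kcnq5*, a subunit of the M-current that restrains repetitive firing (log2 ratio 5.70 ± 0.071, SE, n = 3 per group), *Kcnh5*, the Eag2 potassium channel (5.06 ± 0.17), *Kcnh4*, an Elk channel (5.04 ± 0.21), and *Scn3b*, a beta subunit (4.96 ± 0.057). At the other end stood *Kcnc1* (-1.69 ± 0.028), *Cacna1a* (-1.42 ± 0.034), *Cacna1g*, a low-threshold T-type calcium channel (-1.31 ± 0.033), and *Kcnd2* (-1.21 ± 0.030). These were all more abundant in the cerebellum. Beside them, *Kcna1* (-0.73) and the rare *Kcnq1* (-0.65 ± 0.31, adjusted p = 0.06) were called higher in Cb-N. The *Kcnq1* call was lost with DESeq2, with no filter on low counts, at an FDR below 0.05 and without replicate 2 of F/M-N or of Cb-N. All 8 *Kcnh* genes had positive log2 ratios, from 0.16 for *Kcnh2* to 5.06 for *Kcnh5*.

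**Figure D1:**
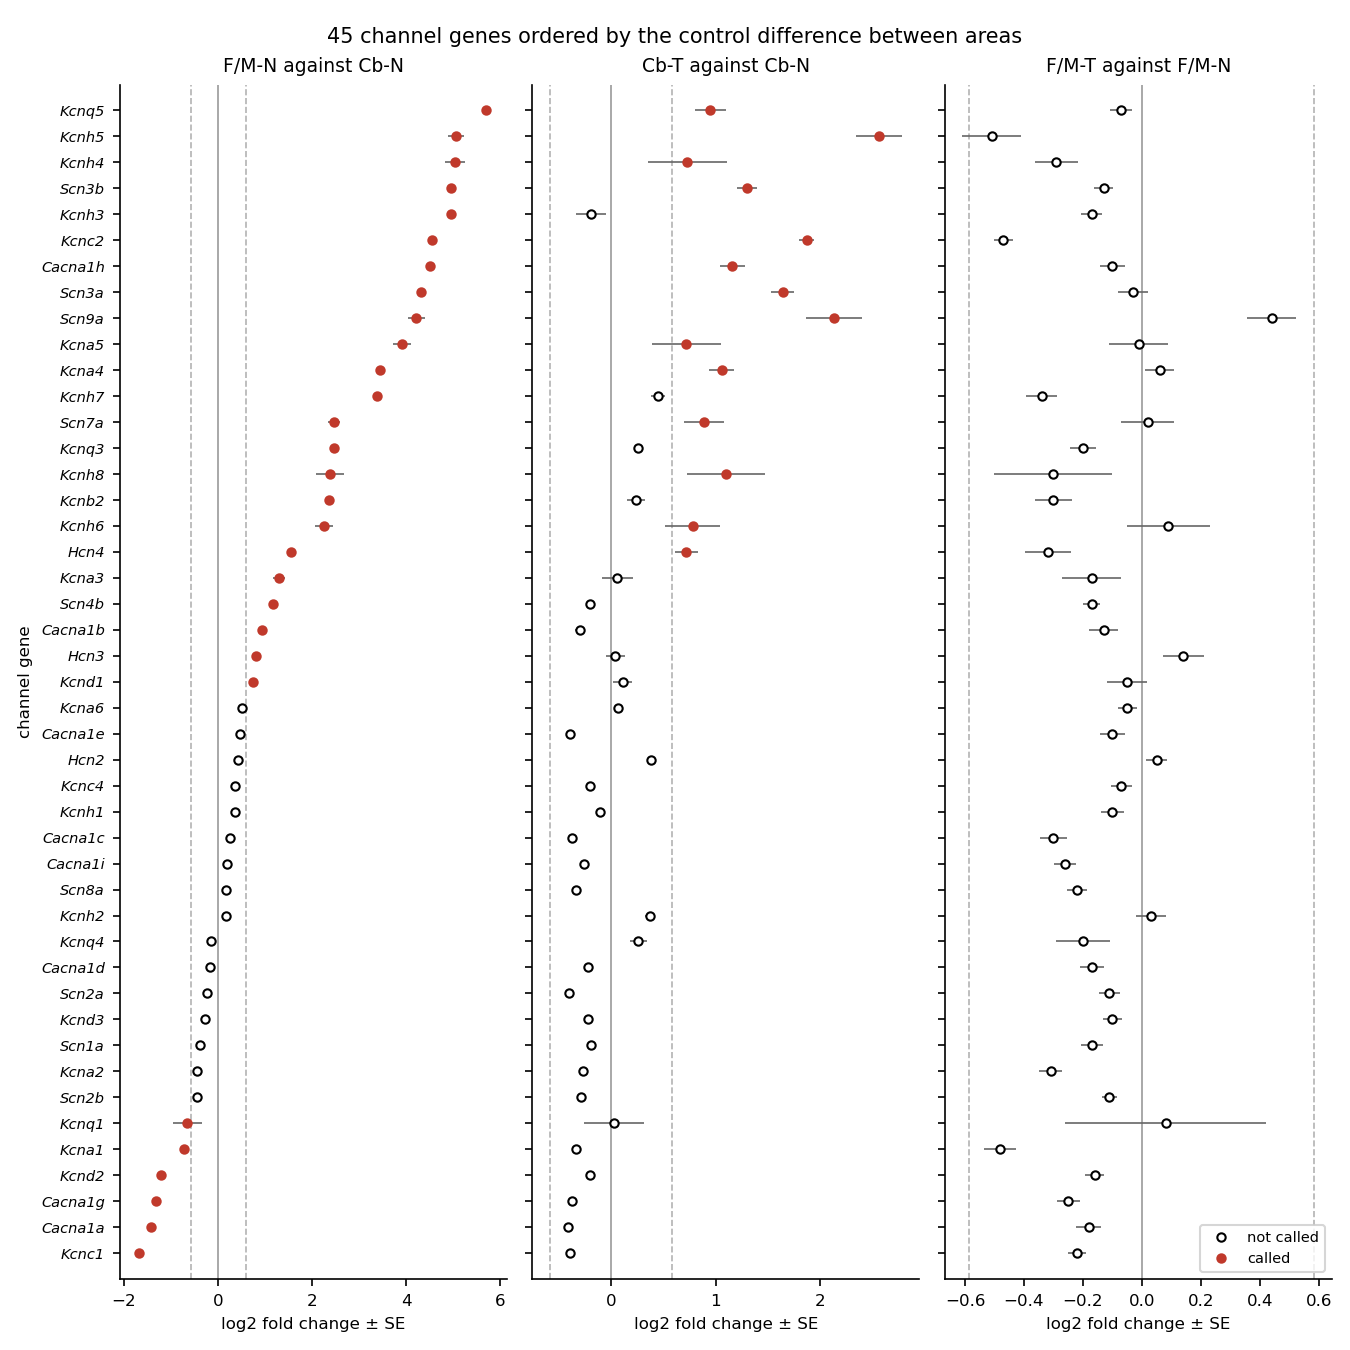
Log2 fold change ± SE of 45 channel genes for F/M-N against Cb-N (left), Cb-T against Cb-N (middle) and F/M-T against F/M-N (right), with genes ordered by the left panel. Each panel has its own axis, dashed lines mark the 1.5-fold limit, and filled points are called DEG, of which the middle panel has 14 on the higher side and the right panel none. The left panel shares the Cb-N libraries with the middle one and the F/M-N libraries with the right one.

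In the *Tpp1*-/- cerebellum most of the abundant members fell moderately and a group of scarce members rose, as did the abundant *Hcn2*, *Kcna6*, *Kcnq3* and *Kcnh2*. Of the 28 members above 40 CPM in Cb-N, a level set after the values were seen, 23 fell and 4 rose, and of the 23 members below it 17 rose. This split describes the members only, since shares of all genes above and below the level were not taken. It was made on Cb-N, which is also the baseline of the fold change. Of the 17, 5 had entered the test through Cb-T only, as given below. Of 50 members tested (1 had too few counts), 14 were called higher, against 8.54% of all 16382 genes tested, and 0 were called lower, against 2.66% (11.2% in either direction). By FDR alone, 21 rose and 23 fell, where 29.8% and 27.9% of all genes did, and at an unadjusted p below 0.05 there were 20 higher and 23 lower. The libraries of the genotypes did not overlap for 20 higher and 24 lower members, against 27.7% and 29.4% of all genes. DESeq2 called 12 higher and 0 lower. Of the 14, *Scn9a*, *Kcna5*, *Kcnh4*, *Kcnh5* and *Kcnh8* reached the level of the low-count filter (0.441 CPM of the raw totals) in all 3 libraries of Cb-T but not of Cb-N, so that these 5 had entered the test through the group in which they were high. The other 9 were among 45 members that reached it in Cb-N (20%), against 6.34% of the genes that did so. The median log2 fold change was 0.03 over the members and 0.0119 over all genes. The summed level went from 7500 to 7810 CPM in Cb-N to 6250 to 6430 CPM in Cb-T, 17.5% lower.

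Among the Kv3 genes, *Kcnc1* was at 724, 743 and 718 CPM in Cb-N and at 577, 547 and 534 CPM in Cb-T. Every Cb-T library was below every Cb-N library, and the fitted log2 fold change was -0.39 ± 0.024 (adjusted p = 1.7e-17). *Kcnc4*, the Kv3.4 gene, fell less (-0.20 ± 0.039).

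Of the calcium channel pores, 7 of 8 fell in Cb. *Cacna1a*, the P/Q-type pore, was at 501, 482 and 461 CPM in Cb-N and at 364, 364 and 349 CPM in Cb-T (-0.41 ± 0.026, adjusted p = 1.8e-17). *Cacna1g*, the Cav3.1 pore, was at 321, 315 and 306 CPM against 245, 242 and 233 CPM (-0.37 ± 0.026). Both were lower in all 3 T libraries. The R-type pore *Cacna1e* fell by 0.39 on the log2 scale, the L-type pores *Cacna1c* and *Cacna1d* by 0.37 and 0.22, the N-type pore *Cacna1b* by 0.30 and the T-type pore *Cacna1i* by 0.26. The eighth gene, *Cacna1h*, rose and is described with the scarce members. The family sum was 22.8% lower in Cb-T.

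The 3 sodium channel pores that carry most action potentials in the adult brain fell in Cb. *Scn2a* (Nav1.2) went from 539, 531 and 499 CPM to 397, 393 and 391 CPM (-0.40 ± 0.025, adjusted p = 1.5e-17). *Scn8a* (Nav1.6), the pore of nodes and initial segments, went from 408, 413 and 388 CPM to 318, 321 and 311 CPM (-0.33 ± 0.025). The decrease of *Scn1a* (Nav1.1), from 321, 326 and 298 CPM to 276, 278 and 267 CPM, was about the size of that of the beta subunit *Scn4b* (-0.19 ± 0.027 and -0.20 ± 0.030). The beta subunit *Scn2b* (-0.29 ± 0.023) also fell.

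Several potassium channel genes of axons and dendrites also fell in Cb, by 0.11 to 0.33 on the log2 scale. Other potassium channel genes rose, among them *Kcna4*, *Kcnq3* and *Kcnq5*, which are described below. *Kcna1* and *Kcna2*, which encode Kv1.1 and Kv1.2 of the axon beside the nodes and of basket cell terminals, changed by -0.33 ± 0.035 and -0.27 ± 0.026 in Cb. *Kcna2* was at 561, 572 and 518 CPM in Cb-N and 457, 454 and 443 CPM in Cb-T. The A-type genes *Kcnd2* (-0.20 ± 0.024) and *Kcnd3* (-0.22 ± 0.029) and *Kcnh1*, the Eag1 gene (-0.11), fell as well. Not all abundant members went down. *Hcn2* rose from 85.4, 90.2 and 92.1 CPM to 116, 117 and 113 CPM (0.38 ± 0.033, adjusted p = 3.1e-13), and *Kcnh2*, an Erg channel gene, rose by 0.37 ± 0.043. *Kcna6* rose 1.05-fold (0.07 ± 0.031, adjusted p = 0.0622), but this value was -0.02 once a trend with exon length and GC content was removed, and 39.6% of its exon bases overlap *Gm26673* on the opposite strand.

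**Figure D2:**
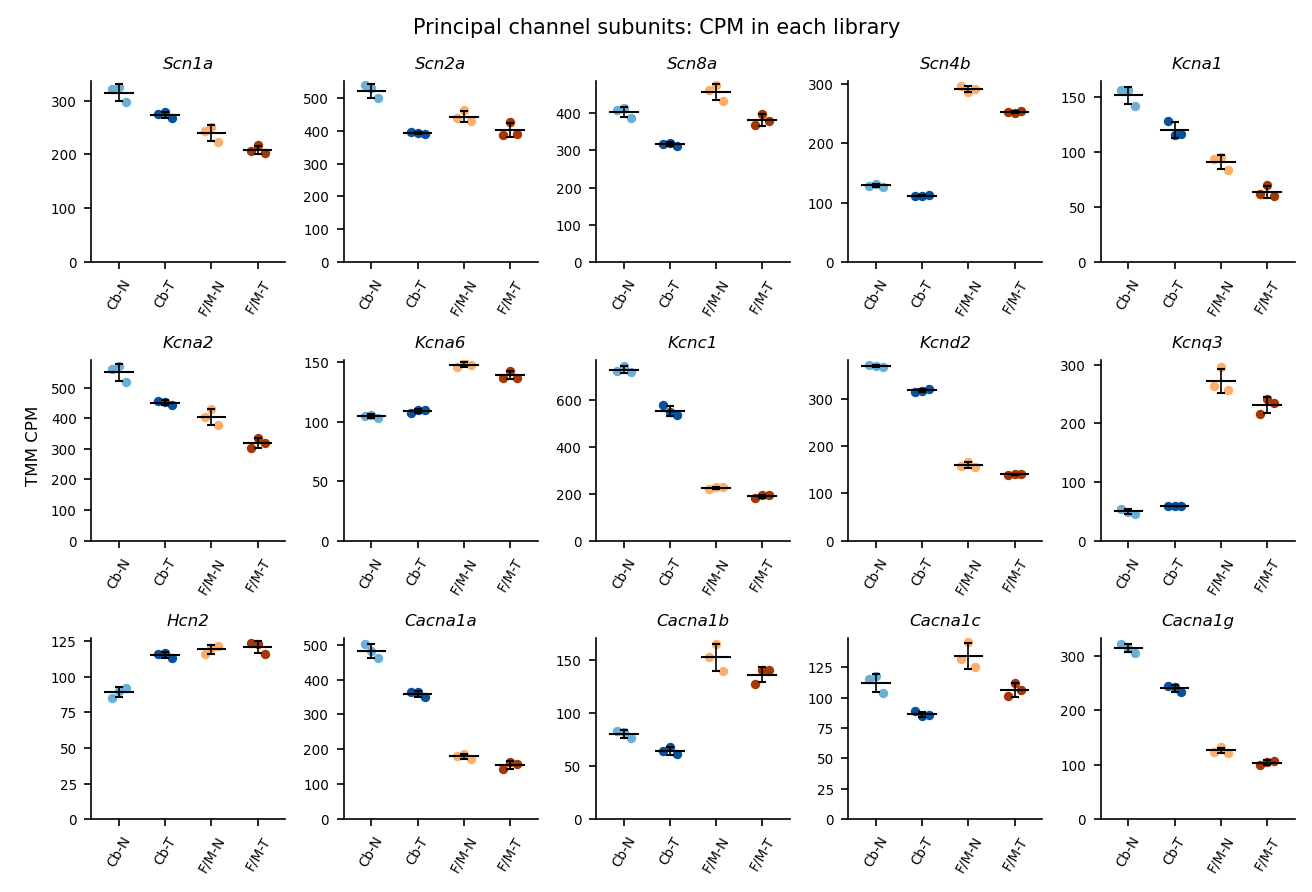
TMM CPM of 15 principal subunits, chosen by their role, in each library, on linear axes from 0, with the 4 groups on the horizontal axis, a point per library, and bars for the mean and SD of 3 libraries. In 12 panels the 3 Cb-T points lie below the 3 Cb-N points, as for *Kcnc1* at 534 to 577 against 718 to 743 CPM, while *Hcn2* (113 to 117 against 85.4 to 92.1 CPM), *Kcnq3* and *Kcna6* rose.

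The 14 members called higher in Cb-T were present at low levels in Cb-N, none above 7.73 CPM on average. *Kcnc2*, the Kv3.2 pore, was the most abundant of them in both groups. It was at 8.16, 7.47 and 7.56 CPM in Cb-N and at 26.5, 27.0 and 30.5 CPM in Cb-T, a 3.65-fold difference (log2 1.87 ± 0.075, adjusted p = 2.7e-24). The *Kcnc* family thus held members that fell and the third largest increase of the set. *Kcnc2* remained far below *Kcnc1* in Cb-T, at 3.92 against 58.4 CPM per kb. Its level in F/M-N was 182 ± 0.854 CPM (SD, n = 3).

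The largest relative increase was that of *Kcnh5*. Its counts were 14, 9 and 15 in Cb-N and 85, 76 and 86 in Cb-T, or 0.576 against 3.40 CPM on average (5.91-fold, log2 2.56 ± 0.22, adjusted p = 4.0e-13). F/M-N held 19.4 ± 2.61 CPM. The other *Kcnh* genes called were *Kcnh8* (1.10 ± 0.37, adjusted p = 0.012), an Elk channel with 5, 9 and 8 counts against 19, 17 and 16, and *Kcnh6* (0.78 ± 0.26, adjusted p = 0.0099), an Erg channel. *Kcnh4* passed the limit barely (0.73 ± 0.38, adjusted p = 0.0998). Its counts of 23, 4 and 7 in Cb-N and 14, 23 and 25 in Cb-T overlapped, and the call was lost with DESeq2 (adjusted p = 0.239) and without Cb-N replicate 2 (0.33, adjusted p = 0.521). *Kcnh7*, the third Erg gene, rose 1.36-fold, short of the fold limit (0.45 ± 0.068, adjusted p = 3.9e-07). With the trend with exon length and GC content removed it was called (0.59, adjusted p = 4.5e-11).

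Sodium channel genes made up 4 of the 14, and 3 of these lie beside *Scn1a* and *Scn2a* in a cluster on chromosome 2. In GRCm38 the order there is *Scn3a* (chr2:65457118-65567627), *Scn2a* (chr2:65620771-65767447), *Scn1a* (chr2:66270778-66440840), *Scn9a* (chr2:66480080-66634962) and *Scn7a* (chr2:66673425-66784914), so that neighbors in the cluster moved in opposite directions in Cb. *Scn9a* encodes Nav1.7, best known from peripheral sensory neurons, and *Scn3a* encodes Nav1.3, best known from the embryonic brain. *Scn9a* had 11, 13 and 6 counts in Cb-N and 47, 46 and 52 in Cb-T (4.38-fold, log2 2.13 ± 0.27, adjusted p = 9.9e-09). *Scn3a* went from 3.59, 3.16 and 3.62 CPM to 11.0, 10.6 and 10.4 CPM (3.11-fold, 1.64 ± 0.11, adjusted p = 6.0e-17). The groups were apart for both, and F/M-N held 8.58 and 69.1 CPM of them. *Scn3b*, a beta subunit, went from 5.28, 5.73 and 6.68 CPM to 14.6, 14.0 and 14.6 CPM (1.30 ± 0.092). *Scn7a*, whose product Nax senses sodium and is found in glia, went from 1.69, 1.60 and 1.48 CPM to 3.58, 3.02 and 2.20 CPM (0.89 ± 0.19, adjusted p = 0.00013). All 3 Cb-T libraries were above those of Cb-N, but they ranged from 2.20 to 3.58 CPM. *Scn1a*, *Scn2a*, *Scn3a* and *Scn9a* share 4.03% to 6.49% of their 50-base words with another gene, mostly with each other, and how the authors' counting divided such reads is not given in the sources used here.

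The remaining 5 were potassium, HCN and calcium channel genes. *Cacna1h*, the Cav3.2 T-type pore, was at 3.15, 3.30 and 3.25 CPM in Cb-N and 7.46, 6.84 and 7.25 CPM in Cb-T (2.24-fold, 1.16 ± 0.12, adjusted p = 3.7e-11). *Kcna4*, the A-type Kv1.4 pore, was at 3.33, 3.16 and 2.78 CPM against 6.45, 6.36 and 6.38 CPM (2.08-fold, 1.06 ± 0.12, adjusted p = 1.4e-09). Both were tightly grouped within each genotype. *Kcnq5* (0.95 ± 0.15), *Hcn4*, the pacemaker channel of the sinoatrial node and thalamus (0.72 ± 0.11), and *Kcna5*, the Kv1.5 pore (0.72 ± 0.33), followed. The last had 9, 11 and 11 counts against 19, 21 and 16, with an adjusted p = 0.0665 that rose to 0.203 with DESeq2.

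**Figure D3:**
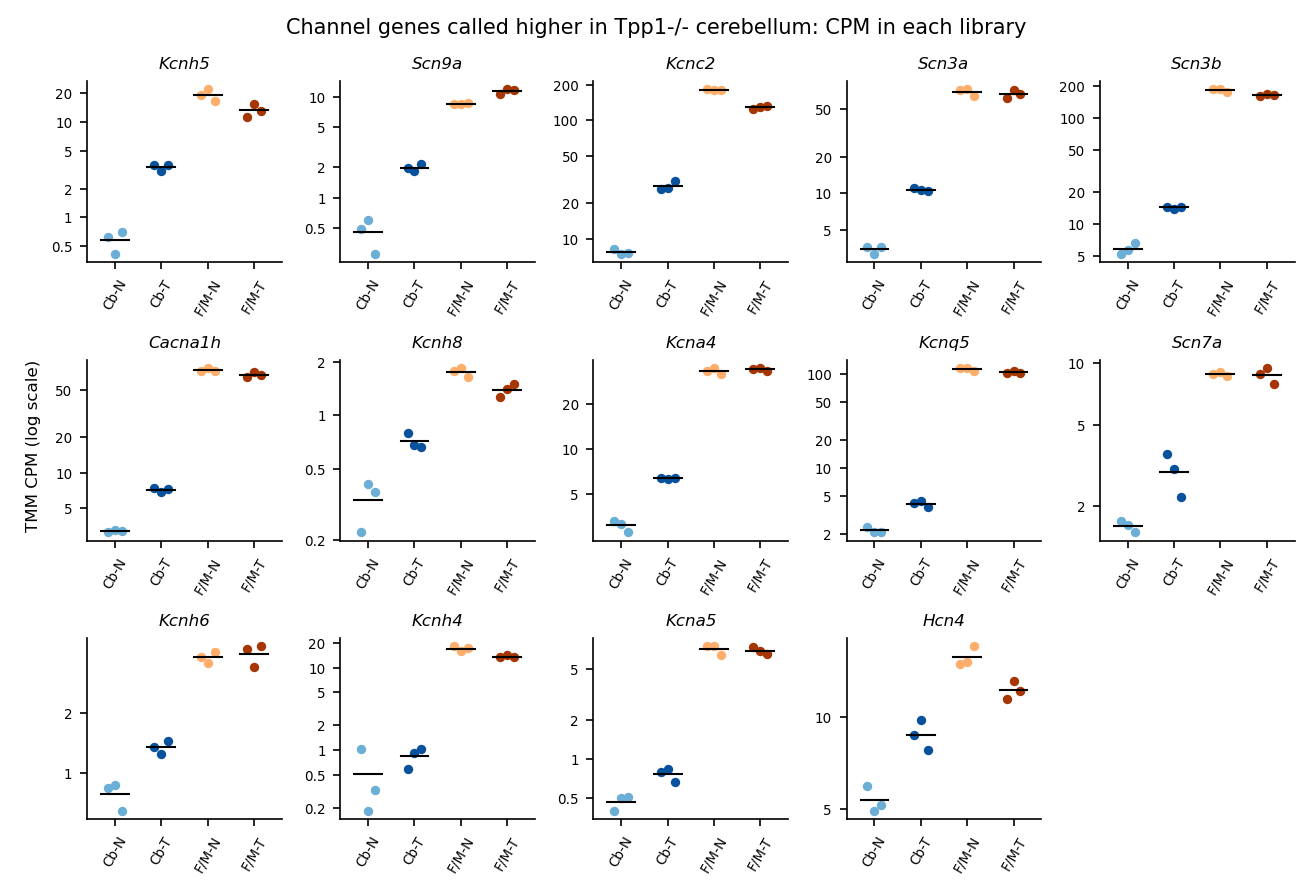
TMM CPM (log scale) of the 14 channel genes called higher in Cb-T, with a point per library, a line at the mean of 3 libraries, and each panel on its own axis. Cb-T lies above Cb-N in every panel, with overlap for *Kcnh4*, and mean levels in Cb-T (3.40 CPM for *Kcnh5*, 28.0 CPM for *Kcnc2*) lie below those of F/M-N (19.4 and 182 CPM).

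Marker genes of other cells and areas moved in the same cerebellar libraries. The 18 Hox genes, which mark hindbrain caudal to the cerebellum and spinal cord, summed to 0.464 to 0.596 CPM in Cb-N, with 9 of 18 at 0 counts in all 3 libraries, and to 14.3 to 15.1 CPM in Cb-T. Those tested reached the level of the low-count filter in Cb-T only, so that the filter fixed their direction and no count of calls is given. Genes of cholinergic, monoaminergic and glycinergic brainstem neurons summed to 89.6 to 92.3 CPM against 209 to 212 CPM, and 14 of 16 tested were called higher, *Chat*, *Slc5a7* and *Dbh* among them, of which 6 reached the filter level in Cb-T only. Forebrain genes summed to 414 to 429 CPM against 457 to 486 CPM (6 of 13 called higher, with 7 rising and 3 falling by FDR). Those called were *Lhx2* (log2 3.79), *Nrgn* (3.61), *Lamp5* (3.34), *Drd2* (3.22), *Bcl11b* (2.02) and *Drd1* (0.92), of which *Lhx2* and *Drd1* reached the filter level in Cb-T only, while *Dlx2* was at 0 counts in all 6 libraries. Microglial genes summed to 208 to 221 CPM against 867 to 881 CPM (18 of 20 called higher, of which *Cst7*, *Itgax* and *Clec7a* reached the filter level in Cb-T only), and oligodendrocyte genes to 5030 to 5140 CPM against 6530 to 6610 CPM (1 of 15 called, 14 of 15 rose). Astrocyte genes summed to 7580 to 7630 CPM against 9570 to 9610 CPM (3 of 15 called, with 13 rising and 1 falling by FDR). Over all genes tested 8.54% were called higher and 29.8% rose. Among the genes that reached the filter level in Cb-N, 6.34% were called higher. In the lists this held for 8 of 10 brainstem, 4 of 11 forebrain and 15 of 17 microglial genes. By FDR, 8 of 8 oligodendrocyte precursor, 5 of 5 blood and 8 of 12 endothelial genes rose as well. Of 10 ependyma and choroid plexus genes 4 rose and 4 fell. The part of these cells in the higher channel genes was not tested.

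Beside the lower channel genes stand the cerebellar neurons. Granule cell genes summed to 8050 to 8200 CPM in Cb-N and 6610 to 6760 CPM in Cb-T, 17.7% lower, and 13 of 15 fell. Purkinje cell genes summed to 9920 to 10100 CPM against 8350 to 8430 CPM, 16.7% lower, and 14 of 15 fell. By edgeR and DESeq2, 0 genes of either list were called, and 13 and 14 were lower at an unadjusted p below 0.05. The summed decrease of the channel genes, 17.5%, stood beside these. Pan-neuronal genes summed to 5.04% less in Cb-T, with 7 of 15 rising and 6 of 15 falling. The part of these lists in the result was not tested.

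**Figure D4:**
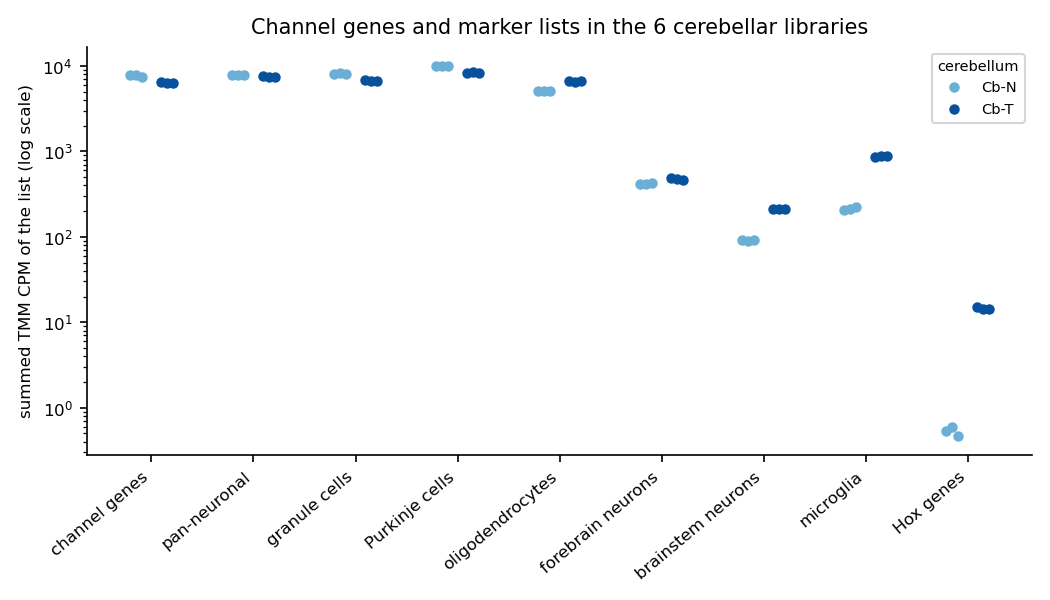
Summed TMM CPM (log scale) of the 51 channel genes and of 8 marker lists in the 6 cerebellar libraries, with a point per library. Channel, granule cell and Purkinje cell sums are slightly lower in Cb-T, while brainstem (209 to 212 against 89.6 to 92.3 CPM), microglial and Hox sums are higher.

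In F/M the members went one way and by little. None of the 51 was called by edgeR, against 2.63% of the 16665 genes tested called higher and 0.858% called lower (3.49% in either direction), and DESeq2 also called 0. By FDR alone 32 fell and 1 rose, where 14.4% and 12.8% of all genes did. At an unadjusted p below 0.05, 33 were lower and 1 higher. The libraries did not overlap for 36 lower and 2 higher members, against 23.6% and 13.3% of all genes. The median log2 fold change was -0.16, against 0.00775 over all genes, and the range was -0.51 to 0.44. The summed level was 7170 to 7670 CPM in F/M-N and 6220 to 6650 CPM in F/M-T, 13.2% lower.

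The largest decreases in F/M were those of *Kcnh5*, *Kcna1* and *Kcnc2*. *Kcnh5* was at 19.2, 22.1 and 16.8 CPM in F/M-N and 11.3, 15.4 and 13.1 CPM in F/M-T (-0.51 ± 0.099, adjusted p = 0.00098). Without F/M-N replicate 3 or F/M-T replicate 2 it passed the fold limit as lower (-0.60 and -0.63). *Kcnc2* went from 183, 182 and 181 CPM to 125, 130 and 132 CPM (-0.47 ± 0.032, adjusted p = 1.8e-09), 27.7% lower and with tight replicates. *Kcna1* went from 93.8, 95.4 and 83.6 CPM to 61.5, 70.0 and 59.7 CPM (-0.48 ± 0.054). In all 3 genes the groups were apart.

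Several other principal subunits fell by less in F/M. *Kcna2* fell by 0.31 on the log2 scale, *Cacna1c* by 0.30, *Cacna1g* by 0.25, *Kcnc1* and *Scn8a* by 0.22, and *Cacna1a* by 0.18. *Scn1a* (-0.17 ± 0.038), *Scn4b* (-0.17 ± 0.029), *Kcnd2* (-0.16 ± 0.033) and *Scn2a* (-0.11 ± 0.034) fell by less still. All 8 *Cacna1* genes fell, with adjusted p between 5.3e-05 for *Cacna1i* and 0.092 for *Cacna1h*. *Scn9a* was the 1 member that rose, from 8.50, 8.51 and 8.72 CPM to 10.6, 11.9 and 11.7 CPM (1.36-fold, 0.44 ± 0.083, adjusted p = 0.00065). *Hcn2* (0.05 ± 0.036, adjusted p = 0.31), *Kcna4* (0.06 ± 0.050, adjusted p = 0.43) and *Kcna6* (-0.05 ± 0.032, adjusted p = 0.26) did not pass the test. In these libraries pan-neuronal genes summed to 11400 to 11500 CPM in F/M-N and 10800 to 10900 CPM in F/M-T, 4.96% lower. Forebrain genes summed to 6.77% less in F/M-T (11 of 20 fell), microglial genes to 68.2% more (18 of 20 rose, of which *Cst7*, *Itgax* and *Clec7a* reached the filter level in F/M-T only) and astrocyte genes to 14.2% more (12 of 15 rose, *Gfap* and *Serpina3n* being called). Brainstem genes summed to 182 to 188 CPM against 195 to 205 CPM, and 3 of 15 tested were called higher. These were *Slc6a4* (5.43 ± 0.24), *Tph2* (3.03 ± 0.14) and *Slc6a5* (0.91 ± 0.25), of serotonergic and glycinergic neurons, and *Slc6a4* reached the filter level in F/M-T only. By FDR, 5 of 5 blood, 5 of 12 endothelial and 3 of 8 oligodendrocyte precursor genes rose, while of 15 oligodendrocyte genes 1 rose and 3 fell. The part of these cells in the result was not tested.

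Whether the genotype difference differed between the areas was tested by the interaction of tissue and genotype over the 12 libraries, which were fitted as independent although the 2 areas can share animals. It was called for 15 of 51 members in the direction of a higher T to N ratio in Cb, against 6.41% of all 17482 genes, and for 0 in the other direction, against 1.2% (10 at an unadjusted p below 0.05, and 0 with DESeq2, which called 13 in the first direction). In either direction 7.61% of all genes were called. By FDR alone the difference was positive for 23 members and negative for 7, against 17.4% and 10.1% of all genes. The largest differences were those of *Kcnh5* (log2 3.09 ± 0.28, adjusted p = 5.1e-10), *Kcnc2* (2.36 ± 0.076, adjusted p = 2.7e-20), *Scn9a* (1.71 ± 0.26) and *Scn3a* (1.69 ± 0.13). These were the genes with the strongest increases in Cb, and *Kcnh5* and *Kcnc2* added to this a decrease in F/M. *Kcnh7* was called (0.81 ± 0.10), with a rise in Cb and a fall in F/M that were each under 1.5-fold. Among members that fell in both areas, the decrease in Cb was larger for *Scn2a* (-0.27 ± 0.047, adjusted p = 5.2e-05), *Cacna1e* (-0.27 ± 0.057), *Cacna1a* (-0.21 ± 0.054), *Scn2b* (-0.16 ± 0.033) and *Kcnc1* (-0.14 ± 0.042). For *Kcna1* the larger decrease was in F/M (0.17 ± 0.073, adjusted p = 0.093).

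The comparisons of T with N in Cb and in F/M share no library. Of the 50 members tested in both, 21 fell in both (42.0%, against 9.77% of the 15706 genes tested in both) and *Scn9a* rose in both (2.0% against 9.42%). Another 9 rose in Cb and fell in F/M, namely *Scn3b*, *Kcnb2*, *Kcnc2*, *Kcnq3*, *Kcnh4*, *Kcnh5*, *Kcnh7*, *Hcn4* and *Cacna1h* (18.0% against 2.06%). At this FDR edgeR found 0 that did the reverse, against 0.598% of all genes. *Scn9a*, *Kcnh4* and *Kcnh5* had reached the filter level of the Cb test in Cb-T only, and the Cb libraries of *Kcnh4* overlapped. The shares of all genes include genes that entered in this way too. A further 13 passed in Cb alone (26.0% against 36.7%), 2 passed in F/M alone, *Kcnh3* among them (4.0% against 6.25%), and *Kcna3*, *Kcnd1*, *Kcnq1* and *Hcn3* passed in neither (8.0% against 35.2%). The 21 that fell in both included the pores *Scn1a*, *Scn2a* and *Scn8a*, the beta subunits *Scn2b* and *Scn4b*, *Kcna1*, *Kcna2*, *Kcnc1*, *Kcnd2*, *Kcnd3*, *Kcnh1* and 7 *Cacna1* genes. *Kcnq3*, an M-current subunit, rose in Cb from 54.1, 48.4 and 46.1 CPM to 58.7, 59.1 and 58.4 CPM (0.26 ± 0.045, adjusted p = 4.0e-06) and fell in F/M (-0.20 ± 0.044, adjusted p = 0.0025). Across the 50 members the log2 fold changes of the areas had a Pearson correlation of 0.127, and across all genes tested in both it was 0.507, as a description over genes that share libraries within each area.

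**Figure D5:**
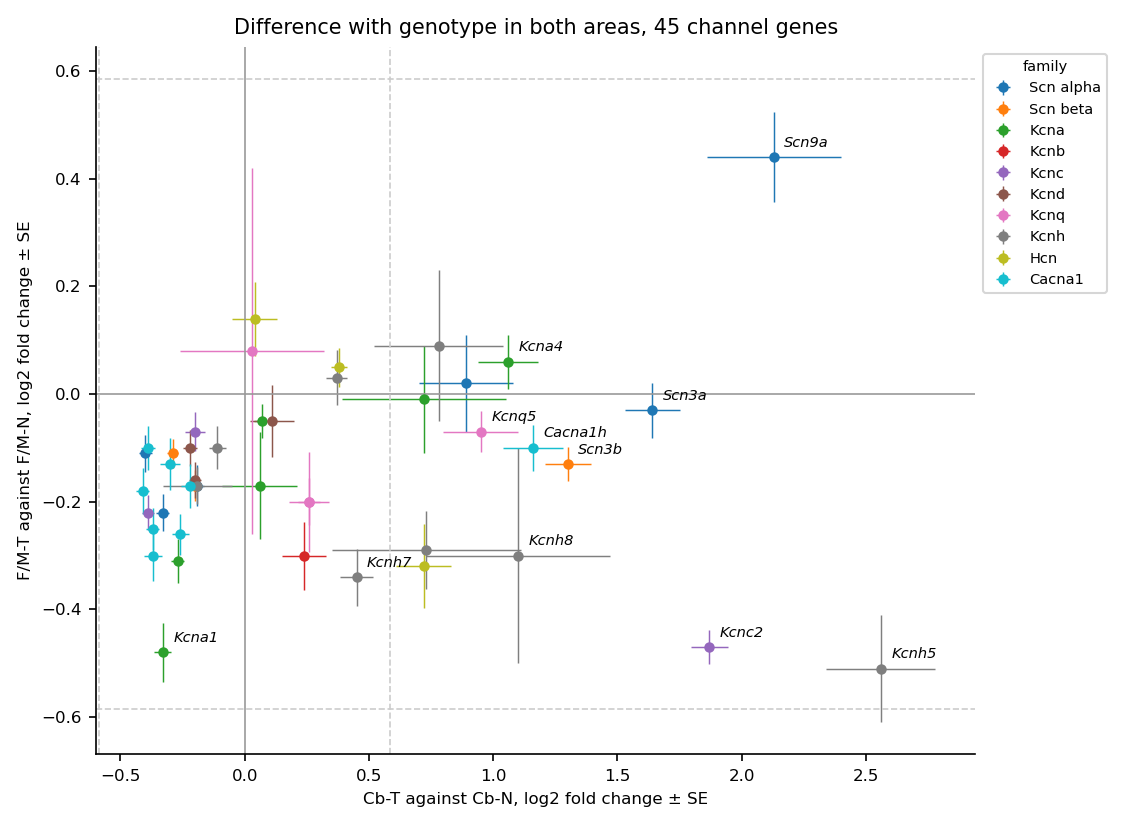
Log2 fold change ± SE of T against N in Cb (horizontal) and F/M (vertical) for 45 channel genes, colored by family, with dashed lines at the 1.5-fold limit. Many abundant subunits lie at lower left, such as *Kcnc1* (-0.39, -0.22), but not *Hcn2* (0.38, 0.05) or *Kcnq3* (0.26, -0.20), while *Kcnc2* (1.87, -0.47) and *Kcnh5* (2.56, -0.51) are far right and below 0, and *Scn9a* (2.13, 0.44) is above 0 on both.

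Genes whose products work with these channels were counted in the same way. Of the auxiliary and silent subunits, 43 were tested in each area. In Cb edgeR called 8 higher and 0 lower, with 13 rising and 17 falling by FDR alone and the same counts at an unadjusted p below 0.05, while DESeq2 called 7 higher and 1 lower. The calls higher were 18.6% of the list, against 8.54% of all genes, and *Kcnv1*, *Kcng1* and *Kcng2* among them reached the filter level in Cb-T only. Of the 40 that reached it in Cb-N, 5 were called higher (12.5%, against 6.34% of all such genes). The share that rose was 30.2%, against 29.8% of all genes, and the share that fell 39.5% against 27.9%. In F/M both tools called 0, with 1 rising and 21 falling by FDR (2.33% and 48.8%, against 12.8% and 14.4% of all genes) and 1 and 22 at the unadjusted level. The largest increases in Cb were those of *Kcnv1*, a silent subunit of Kv2 channels (2.23 ± 0.44), *Kcng1*, also silent (1.96 ± 0.44), *Kcnip2*, a calcium-binding partner of Kv4 channels (1.72 ± 0.13), and *Kcns1*, a silent subunit (1.22 ± 0.17). *Kcnip2* was at 2.22, 2.66 and 2.55 CPM in Cb-N and 7.59, 8.53 and 8.12 CPM in Cb-T. Of the 17 partners at the axon initial segment and node of Ranvier, 1 was called higher in Cb, *Gldn*, which clusters channels at nodes (1.67 ± 0.38), with 4 rising and 9 falling by FDR (23.5% and 52.9%, against 29.8% and 27.9% of all genes). *Gldn* reached the filter level in Cb-T only. In F/M edgeR and DESeq2 called 0 of these partners, with 0 rising and 9 falling by FDR and at the unadjusted level (0% and 52.9%, against 12.8% and 14.4% of all genes). Of 22 other potassium channel genes, the inward rectifiers *Kcnj4* (2.57 ± 0.37) and *Kcnj2* (1.79 ± 0.11) and the sodium-activated *Kcnt2* (1.31 ± 0.21) were called higher in Cb (13.6% of the list), *Kcnj4* having reached the filter level in Cb-T only. Of the 21 that reached it in Cb-N, 2 were called higher (9.52%). The tandem-pore gene *Kcnk12* was called lower (-0.61 ± 0.091). By FDR alone 6 rose and 10 fell in Cb (27.3% and 45.5%). In F/M both tools called 0 of the 22, with 3 rising and 6 falling by FDR (13.6% and 27.3%) and 3 and 7 at the unadjusted level.

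The share of genes that fell went with transcript length over all genes. The 15970 genes in Cb and 16244 in F/M that were tested and had a matched exon length (all but 412 and 421) were divided by it into 4 bins of about equal size. In the bin of the longest genes, from 6.61 kb in Cb and 6.57 kb in F/M, 48.4% of all genes fell in Cb and 29.2% in F/M. In the bin of the shortest genes 13.3% and 4.65% did. In the bins between, in order of length, 19.0% and 30.9% fell in Cb, and 8.89% and 15.8% in F/M. The median log2 fold change went from 0.093 in the shortest bin to -0.078 in the longest in Cb. In F/M it went from 0.083 to -0.051. The share that rose went from 33.9% to 21.7% in Cb and from 17.8% to 7.32% in F/M. The channel transcripts were long, with a median of 7.33 kb. Of the 26 members in the longest bin in Cb 16 fell (61.5%), and of the 24 shorter ones 7 (29.2%). In F/M 22 of 27 long members fell (81.5%) and 10 of 24 shorter ones (41.7%). With the trend of each library with exon length and GC content taken out, the 23 members that fell in Cb also fell (46.0%), and 18 rose, all of them among the 21. Over the 15970 genes with a length this setting moved the median log2 fold change in Cb from 0.0132 to -0.0739, the number that fell from 4457 to 6421 (40.2%) and the number that rose from 4810 to 3191, and the members' median was then -0.0659. In F/M 28 members fell, 27 of them among the 32, and 2 rose. Of the 16244 genes 17.8% fell, against 14.6% before, and the medians were -0.121 over the members and -0.0173 over these genes. *Scn9a* was among those that rose in F/M. The part of transcript length in the decreases was not tested further.

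Promoters of the members were read from RefSeq (GRCm38.p6), whatever the direction in which a member moved, from 250 bases before to 50 bases after a gene start. A promoter was listed for 32 members, 41 promoters in all. Their median GC content was 64.0%, against 52.7% of 32851 promoters. The GC box GGGCGG, on either strand, was in 20 of 41 (48.8%) against 35.7% of all promoters, and the TATA box TATAAA in 4.88% against 13.6%. Shown here are the promoters of *Kcnc1* (chr7:46396218-46396517, plus strand) and *Kcna2* (chr3:107101317-107101616, plus strand), which fell in both areas, and of *Kcnh5* (chr12:75177283-75177582, minus strand) and *Kcna4* (chr2:107290339-107290638, plus strand), which rose in Cb. Sequences read 5′ to 3′ along the gene, and capitals mark GC boxes on either strand, adjoining ones run together.
Kcnc1: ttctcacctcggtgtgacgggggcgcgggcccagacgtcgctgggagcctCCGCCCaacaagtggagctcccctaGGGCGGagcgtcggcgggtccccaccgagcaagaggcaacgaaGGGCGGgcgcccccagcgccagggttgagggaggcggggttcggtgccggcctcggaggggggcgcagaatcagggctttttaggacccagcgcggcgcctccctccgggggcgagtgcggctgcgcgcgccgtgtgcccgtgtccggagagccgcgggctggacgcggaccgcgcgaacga
Kcna2: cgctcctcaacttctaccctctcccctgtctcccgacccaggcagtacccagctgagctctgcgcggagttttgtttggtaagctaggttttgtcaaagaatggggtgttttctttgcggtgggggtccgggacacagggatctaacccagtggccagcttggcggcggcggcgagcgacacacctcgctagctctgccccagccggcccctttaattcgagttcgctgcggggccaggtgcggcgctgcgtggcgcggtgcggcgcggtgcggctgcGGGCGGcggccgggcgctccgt
Kcnh5: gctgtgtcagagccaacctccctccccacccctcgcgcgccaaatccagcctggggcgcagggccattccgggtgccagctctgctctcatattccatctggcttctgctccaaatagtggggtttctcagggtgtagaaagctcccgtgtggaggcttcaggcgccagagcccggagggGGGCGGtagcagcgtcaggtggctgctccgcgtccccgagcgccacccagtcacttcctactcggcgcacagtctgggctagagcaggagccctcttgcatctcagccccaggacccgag
Kcna4: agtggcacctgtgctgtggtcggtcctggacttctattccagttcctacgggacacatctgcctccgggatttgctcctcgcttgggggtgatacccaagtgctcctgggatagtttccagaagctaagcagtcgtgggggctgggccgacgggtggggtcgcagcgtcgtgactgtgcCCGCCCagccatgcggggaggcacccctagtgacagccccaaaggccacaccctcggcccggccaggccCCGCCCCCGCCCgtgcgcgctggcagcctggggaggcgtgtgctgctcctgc
All 4 promoters carry at least 1 GC box, with 3 in *Kcnc1*, 3 in *Kcna4* and 1 each in *Kcna2* and *Kcnh5*, so members that fell and members that rose both hold this motif. The E-box CACGTG was in 1 of the 41 promoters (*Kcnh4*; 2.44% against 7.15% of all), and the cAMP response element TGACGTCA in 0 of 41 against 1.79% of all. The left RE1 half-site TTCAGCACC was in 1 of 41 (*Kcnh6*) against 0.371% of all, and the right RE1 half-site, searched likewise on both strands, in 0 of 41 against 0.137%.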

How the data were processed

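Poly(A) RNA of 12 bulk tissue samples was sequenced with a stranded kit as single-end reads of 50 bases. The authors aligned the reads to mm10 (GRCm38) with STAR, version 2.5.1b per the submitters' processing notes, and deposited whole-number counts per gene from featureCounts (Rsubread 1.26.1). The strand setting, the handling of multi-mapping reads and the annotation release are not given in the sources used here. Files were tied to samples and samples to groups by the labels.

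From the counts, edgeR 4.0.16 (R 4.3.3) was run with TMM factors, filterByExpr (minimum count 10, minimum total 15) and the quasi-likelihood test, fitted over all genes of the groups compared, with the Benjamini-Hochberg adjustment. The interaction was fitted over 12 libraries. Calls needed an FDR below 0.1 and a 1.5-fold change. Values per kb used the exon union length of GENCODE M21. The main edgeR fit of each comparison was tested on simulated counts with 200 changed genes, none of them at low counts. The other steps and the alternative settings were not tested in this way. Libraries held 21428379 to 24458189 counts, and the floor of 3 counts covers counting error only, while standard errors come from the fit and include the spread between libraries. No 2 libraries of a group agreed within sampling noise (chi-square per degree of freedom 1.27 to 3.37).

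Members and gene lists were chosen with earlier results of these data known. Genes named with values were members called in a T to N comparison or in the interaction, the 5 highest and 5 lowest F/M-N to Cb-N ratios, the 5 highest levels per kb in each control area, fixed principal subunits, and from the lists of partner genes up to 4 called genes per direction and area. Others (*Cacna1d*, *Cacna1e*, *Cacna1i*, *Kcna3*, *Kcnb2*, *Kcnc4*, *Kcnd1*, *Kcnd3*, *Kcnh1*, *Kcnh2*, *Kcnh3*, *Kcnq1*, *Hcn3*, and the cell and area markers) were named to complete a family or count, after their values were seen. Alternatives were DESeq2 1.42.0, other scaling, other filters and limits, a replicate block, 1 fit of all libraries, and each library left out. Values of 6 members are not reported here, although these members are in the counts, sums and fits. Removal of a trend with exon length and GC content was chosen after seeing the data.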

Additional observations from a re-analysis of the deposited data

Results flagged for a closer look

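For 15 members the log2 fold change of T against N differed between the areas by the interaction test of edgeR (FDR below 0.1 and at least 1.5-fold), which is why they are listed, and in each the Cb value was the higher. The difference, Cb minus F/M, was 3.09 for *Kcnh5*, 2.36 for *Kcnc2*, 1.71 for *Scn9a*, 1.69 for *Scn3a*, 1.45 for *Scn3b*, 1.42 for *Kcnh8*, 1.29 for *Cacna1h* and 1.07 for *Hcn4*. It was 1.05 for *Kcnh4*, 1.04 for *Kcnq5*, 1.02 for *Kcna4*, 0.89 for *Scn7a*, 0.81 for *Kcnh7*, 0.75 for *Kcna5* and 0.71 for *Kcnh6*. The last 2, with adjusted p of 0.087 and 0.061, were not called by DESeq2 or at an FDR below 0.05. The difference for *Kcnh4* was not called without Cb-N replicate 2 (0.65, adjusted p = 0.247), Cb-N replicate 3 (0.81), Cb-T replicate 2 (0.98) or Cb-T replicate 3 (0.83). Those for *Kcna5* and *Kcnh6* were also lost in several fits with 1 library left out.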

How the results depend on the processing

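In Cb, 12 of the 14 calls remained with DESeq2 and with an FDR below 0.05, *Kcna5* and *Kcnh4* being lost. *Kcnh4* was at 0.33 (adjusted p = 0.521) without Cb-N replicate 2. Its call was also lost without Cb-N replicate 3, Cb-T replicate 2 or Cb-T replicate 3, and that of *Kcna5* without any 1 library except Cb-T replicate 3. Under a mean count of at least 50, 8 members were called in Cb, since fewer genes were tested, with 897 of all genes called in Cb, 259 in F/M and 877 in the interaction. Without the fold limit, 44 members were called in Cb, 33 in F/M and 30 in the interaction, and of all genes 9442 in Cb, 4541 in F/M, 4816 in the interaction and 13459 between the control areas. DESeq2 called 365 of all genes in F/M. With 1 library left out, the members called numbered 12 to 13 in Cb, 0 to 1 in F/M (*Kcnh5*, lower, without F/M-N replicate 3 or F/M-T replicate 2), 12 to 15 in the interaction and 33 to 34 between control areas, and all genes called 1832 to 1986, 498 to 632, 1237 to 1359 and 7052 to 7262.

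Values that changed sign were all near 0 except that of *Hcn2*. With the trend with exon length and GC content removed, they were -0.02265 for *Kcna6* in Cb, 0.01751 for *Scn3a* in F/M, and -0.0436 for *Hcn2* between the control areas, so that *Hcn2* no longer differed, while the median of all genes moved from -0.00921 to -0.142 between the control areas. *Kcna5* in F/M was at 0.007583 with total counts only, and *Scn7a* in F/M at -0.009797 in the fit of all 12 libraries. With 1 library left out, values in F/M ranged for *Kcna5* from -0.0807 to 0.03082, for *Scn3a* from -0.08352 to 0.01927 and for *Scn7a* from -0.03634 to 0.09103. The cause was not tested.

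Same-numbered libraries did not deviate together (correlations -0.0157 to 0.0616), so the numbers were not taken to pair samples. With the replicate block, 14 members were called in Cb, 0 in F/M, 15 in the interaction and 34 between control areas, and 1834, 607, 1346 and 7023 of all genes. Depth bounds the precision of members with few counts in Cb, such as *Kcna5*, *Kcnh4* and *Kcnh8*, and its part in these calls was not tested. Libraries of the areas can share animals that the labels do not tie together, so no fit by animal was made.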
